A study of Mus musculus with 2 samples.

Results

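Matricellular proteins are secreted into the extracellular matrix, where they tune how cells attach, move and respond to growth factors rather than bearing load themselves. They are low in most resting adult tissues and are well known for their return in wounds, fracture calluses and tendon injury, and several of them bind integrins, CD44, CD36 or CD47 on the cell surface. The genes described here were 10 members of this class, chosen by symbol: *Postn*, *Tnc*, *Tnn*, *Thbs1*, *Thbs2*, *Thbs4*, *Sparc*, *Spp1*, *Nov* and *Cthrc1*. All 10 were among the 31054 features of both libraries, and they were read from the raw counts of every kept cell.

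The cells came from the callus that forms in the gap of a resected mouse rib, taken 4 days after large-scale resection. The control was *Sox9*:CreER;*R26*:tdT;*Smo* f/+ and the *Smo* cKO was *Sox9*:CreER;*R26*:tdT;*Smo* f/f, so that both carried the Cre driver, the tdTomato reporter and at least 1 floxed *Smo* allele, and mice of both genotypes received tamoxifen in the week before surgery. *Smo* encodes the transducer of the Hedgehog signal. Cre was driven from *Sox9* and not in all callus cells, so a cell from the *Smo* cKO library need not have lost *Smo*. Each genotype was 1 library of cells pooled from 3 animals. With 1 library per genotype there was no replicate and no test, and every difference below compares these libraries and cannot be told apart from a difference between pools, preparations or runs.

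After keeping cells with 200 or more genes and under 10% mitochondrial UMIs, 10057 of 10747 cells of the control library remained, and 9507 of 10512 of the *Smo* cKO library, with medians of 8367 and 9092 UMIs (unique molecular identifiers, each standing for 1 counted transcript end). Levels are given as CPM, the UMIs of a gene summed over a group of cells and divided by all UMIs of that group, scaled to 1000000. Brackets hold 95% exact Poisson intervals for levels, exact conditional intervals for log2 ratios of *Smo* cKO over control, and Clopper-Pearson intervals for shares. All of them cover counting error only and say nothing of animals. The intervals of levels and ratios also leave out the spread between cells. Cells were gated into classes by a score over marker genes that do not include any of the 10 members. Of the kept cells, 353 control and 516 *Smo* cKO cells that scored for more than 1 class were set aside as mixed. The connective-like class held 6404 control and 5034 *Smo* cKO cells. All 14 of its listed markers were higher there than elsewhere, which is no separate check because the gate used them. Macrophage-like cells numbered 1366 and 1772, muscle-like cells 226 and 396, osteoclast-like cells 380 and 218, and endothelial-like and mural-like cells between 58 and 78 in each library.

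The libraries shared 613 barcodes, 599 of them among the kept cells, and the members of a pair differed in depth by a median of 59.5-fold. Leaving these cells out of both libraries moved the log2 ratio of a member at 50 CPM or more in the connective-like or macrophage-like class by at most 0.10, a shift seen for *Spp1* in connective-like cells (0.44 with them and 0.54 without). *Smo* itself was at 19.2 CPM in control and 12.4 CPM in *Smo* cKO connective-like cells. Transcript ends are counted here, and which part of *Smo* is removed was not given in the sources used, so this value does not check the deletion. Classes are ranked where both libraries held 50 or more cells, which leaves out the B-like, epithelial-like and erythroid-like cells; the last, 44 in the control, carried more of the members than other blood cells did (*Postn* at 1391 and 790 CPM). A tdTomato UMI was found in 47 control connective-like cells (0.734%, 0.540% to 0.975%) and 108 *Smo* cKO ones (2.15%, 1.76% to 2.58%), against 0.220% and 0.226% of macrophage-like cells, which should lack the lineage label. These shares are not at equal depth. Median depths were 11074 and 13548.5 UMIs in connective-like cells and 2297.5 and 3036.5 UMIs in macrophage-like cells.

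Promoter sequence was available for 7 of the 10 members, as 10 windows that start 250 bases before a RefSeq start site and hold 50 bases from it on (GRCm38.p6), and 2 of these are printed because the results below turn most on the genes they belong to. *Spp1*, which encodes osteopontin, lies on chromosome 5 from 104435118 to 104441050 on the plus strand in the GENCODE annotation of mm10, and had the largest ratio between libraries of the members at 50 CPM or more in macrophage-like cells. *Postn*, which encodes periostin, lies on chromosome 3 from 54361109 to 54391037 on the plus strand, and was most like a collagen gene in its pattern over cell groups. Capitals mark matches on either strand to the letters searched. These were TATAAA for a TATA box and AACCACA for the core that RUNX factors bind. For AP-1 they were TGANTCA, for TEAD factors GGAATG and for GLI factors GACCACCCA. No match overlapped another in these windows.
Spp1 promoter, chr5:104434861-104435160, plus strand: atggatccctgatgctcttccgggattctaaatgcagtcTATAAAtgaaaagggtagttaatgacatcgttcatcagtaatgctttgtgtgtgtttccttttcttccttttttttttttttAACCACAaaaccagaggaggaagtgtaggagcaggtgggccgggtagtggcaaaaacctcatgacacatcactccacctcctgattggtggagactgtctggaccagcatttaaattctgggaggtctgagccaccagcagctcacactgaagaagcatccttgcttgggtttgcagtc
Postn promoter, chr3:54360857-54361156, plus strand: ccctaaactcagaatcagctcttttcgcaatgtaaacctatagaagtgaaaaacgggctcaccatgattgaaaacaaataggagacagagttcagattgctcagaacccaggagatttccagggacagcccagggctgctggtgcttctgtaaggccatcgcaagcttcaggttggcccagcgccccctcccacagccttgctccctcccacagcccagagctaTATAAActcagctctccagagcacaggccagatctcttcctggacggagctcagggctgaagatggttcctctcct
In the *Spp1* window the TATAAA match began 211 bases and the AACCACA match 129 bases before the start site. In the *Postn* window the single match was a TATAAA that began 26 bases before the start site. Over all 32851 promoter windows of the same length, 13.6% held the TATA box, 5.27% the RUNX, 7.81% the AP-1, 0.253% the GLI and 14.7% the TEAD letters. A match describes the letters and not a bound site.

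The first question was which cells of the callus carried each transcript. Of the 9 classes with 50 or more cells in both libraries, the connective-like class had the highest level of 8 of the 10 members in the control, and of 8 in the *Smo* cKO library. The share of all genes highest in that class was not counted, so these counts are not read as particular to the members. The exceptions in both libraries were *Spp1* and *Thbs1*, which were highest in macrophage-like cells. Among the classes left unranked, the 38 epithelial-like *Smo* cKO cells were at 601 CPM (538 to 670) of *Thbs1* from 329 UMIs. They were at 78.6 CPM (56.9 to 106) of *Nov* from 43 UMIs, which lay in 8 of these cells. Both levels were above that of the highest ranked class in the same library. In the control, connective-like cells held between 92.7% and 94.5% of all UMIs of each of the 8 members highest in them, and in the *Smo* cKO library between 86.6% and 91.9%. Over all genes they held 83505319 of the 104189394 UMIs of kept control cells and 77016861 of 110863278 in the *Smo* cKO library. Of *Spp1* UMIs they held 71.6% in control and 47.1% in the *Smo* cKO library, while the share in macrophage-like cells was 15.1% and 34.1%. Over all genes macrophage-like cells held 3473453 and 5956340 of these UMIs.

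**Figure D1:**
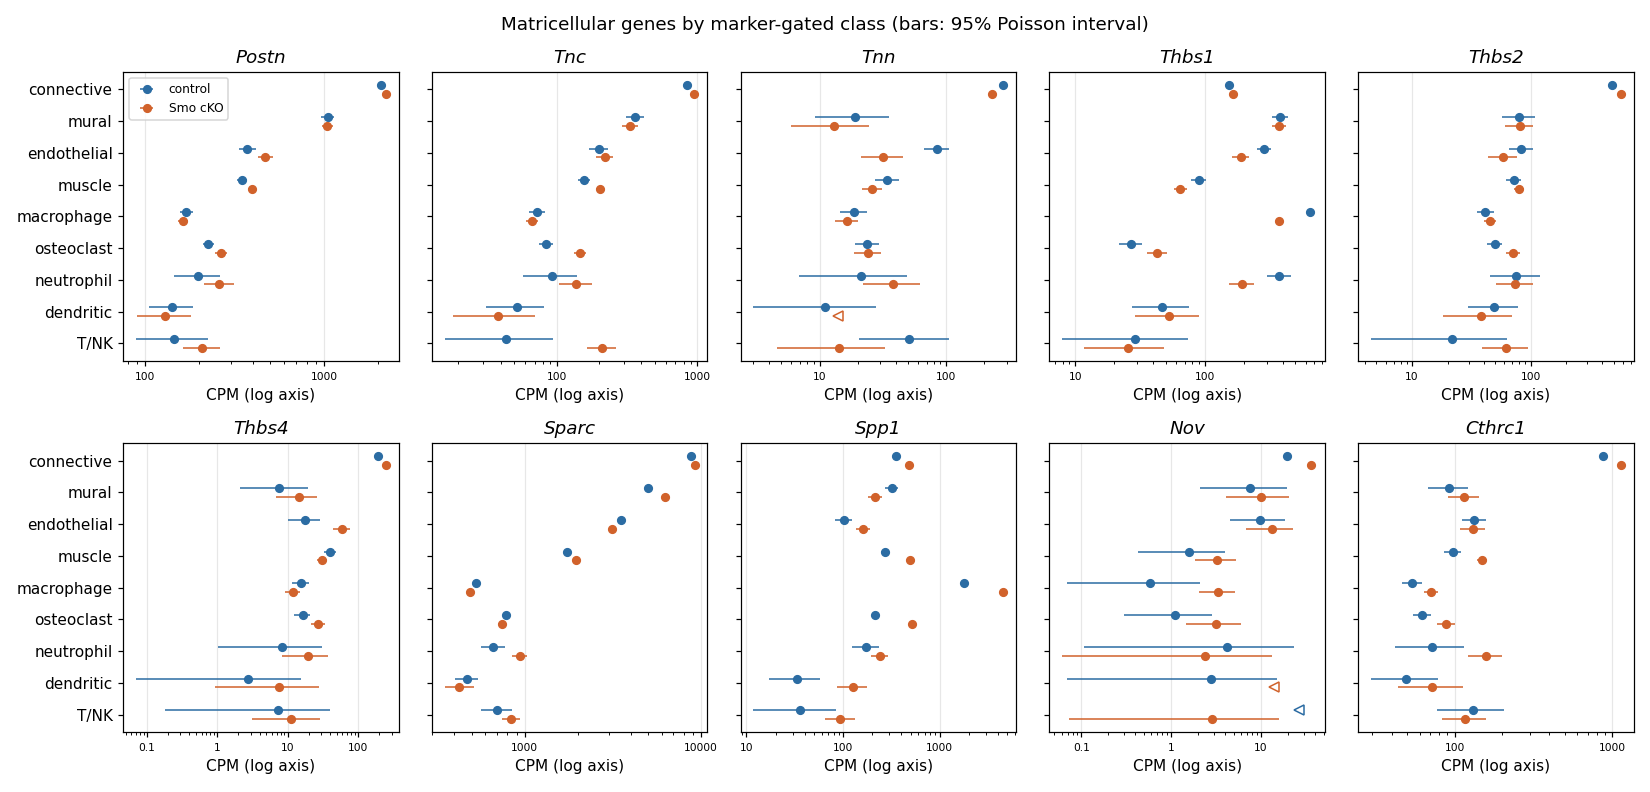
Level of each member in 9 marker-gated classes, as CPM on a log axis, with control in blue and *Smo* cKO in orange. Points are the CPM of the summed UMIs, bars are 95% Poisson intervals, and open triangles mark the upper limit where no UMI was counted. By its points the connective-like class sits to the right of all others except for *Thbs1* and *Spp1*, where macrophage-like cells do. For *Nov* in the control, the T/NK-like triangle at 26.7 CPM lies to the right of the connective-like point at 19.5 CPM.

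*Postn*, a matrix protein of periosteum and periodontal ligament that assists collagen cross-linking, was at 2076 CPM (2066 to 2085) in control and 2217 CPM (2206 to 2228) in *Smo* cKO connective-like cells. The mural-like cells, the next class in order, were at 1050 and 1046 CPM, so that connective-like cells were 1.98-fold and 2.12-fold higher. Immune classes were at a low and like level, 170 and 163 CPM in macrophage-like cells and 145 and 207 CPM in T/NK-like cells, which do not make periostin. The T/NK-like level is read as the background of free RNA, and connective-like cells lay well above it. Median depths were 1257 and 1529 UMIs in T/NK-like and 11074 and 13548.5 UMIs in connective-like cells. Above T/NK-like, B-like and erythroid-like cells together, connective-like cells were 2.17-fold higher in control and 3.68-fold in *Smo* cKO for *Postn*. *Sparc*, a calcium- and collagen-binding glycoprotein abundant in mineralizing matrix, was at 8796 CPM in control and 9236 CPM in *Smo* cKO connective-like cells, followed by 4997 and 6278 CPM in mural-like and 3525 and 3125 CPM in endothelial-like cells. Its background in T/NK-like cells was 695 and 839 CPM.

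*Tnc*, which encodes the large hexameric tenascin-C of healing wounds and tendon, was at 842 CPM (835 to 848) in control and 954 CPM (947 to 961) in *Smo* cKO connective-like cells, against 363 and 333 CPM in mural-like cells. T/NK-like cells had 43.5 CPM of it from 6 UMIs in 6 cells in the control library and 210 CPM from 74 UMIs in 23 cells in the other. With each cell thinned to 1000 UMIs, the intervals of the share with *Tnc* overlapped (0.400% to 11.3% and 5.11% to 14.4%). Macrophage-like cells were at 72.6 and 67.3 CPM and neutrophil-like cells at 92.7 and 137 CPM. Whether the *Tnc* background differed between the libraries was therefore not settled. *Tnn*, which encodes tenascin-W of periosteum and developing bone, was at 280 CPM (276 to 284) in control and 229 CPM (225 to 232) in *Smo* cKO connective-like cells. In the control the next class was endothelial-like at 84.2 CPM from 77 UMIs, and in the *Smo* cKO library it was neutrophil-like at 38.3 CPM from 16 UMIs. T/NK-like cells were at 50.7 and 14.2 CPM of *Tnn*, from 7 and 5 UMIs, so these classes were not separated from the background by their counts.

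Among the thrombospondins, *Thbs2* and *Thbs4* had the connective-like pattern and *Thbs1* did not. *Thbs2*, an anti-angiogenic regulator of collagen fibril assembly, was at 484 and 571 CPM in connective-like cells and at 83.1 CPM or less in every other ranked class in either library. *Thbs4*, the pentameric form found in tendon and muscle attachments, was at 195 and 247 CPM in connective-like cells, with the next class at 40.0 CPM (muscle-like, control) and 59.5 CPM (endothelial-like, *Smo* cKO). *Thbs1*, an activator of latent TGF-beta carried by platelets and monocytes, was at 154 and 164 CPM in connective-like cells but at 647 CPM (621 to 675) in control and 373 CPM (358 to 389) in *Smo* cKO macrophage-like cells. Mural-like cells were at 378 and 372 CPM, so that in the *Smo* cKO library the macrophage-like and mural-like levels of *Thbs1* lay 1.00-fold apart and their order was within counting error. T/NK-like cells, at 29.0 and 25.5 CPM, gave a *Thbs1* background far below those classes. Above T/NK-like, B-like and erythroid-like cells together, connective-like cells were only 1.09-fold higher in control and 2.60-fold in *Smo* cKO for *Thbs1*.

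*Cthrc1*, a secreted glycoprotein induced in activated fibroblasts after injury, was at 876 CPM (870 to 882) in control and 1135 CPM (1127 to 1142) in *Smo* cKO connective-like cells. Its next class was at 133 CPM (endothelial-like) in control and 158 CPM (neutrophil-like) in the *Smo* cKO library, which is near its T/NK-like background of 130 and 116 CPM. *Nov*, the CCN family member also named *Ccn3*, had 1626 and 2779 UMIs in connective-like cells, or 19.5 and 36.1 CPM. It was at 13.2 CPM or less in the other ranked classes. In the control, its upper limit was 26.7 CPM in T/NK-like cells (0 UMIs) and 23.5 CPM in neutrophil-like cells (1 UMI). Counts therefore did not settle the order of *Nov* between these classes and connective-like cells in the control.

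Connective-like cells were not uniform, and the members separated into patterns when these cells were split by markers into 7 subclasses. The largest were cells scoring highest for *Inhba*, *Timp1*, *Loxl2* and related genes (2952 control and 2620 *Smo* cKO cells), and cells scoring highest for *Sfrp4*, *Eln*, *Cxcl12*, *C3* and related genes (1698 and 642). Smaller ones were proliferating (739 and 728), skeletogenic (480 and 468), tendon-like (76 and 121), *Serpinb2*/*Dlk1* (93 and 156) and osteoblast-like cells (23 and 32), and 343 and 267 cells were in none. The share of connective-like cells in the *Sfrp4*/*Eln* subclass was 26.5% in control and 12.8% in the *Smo* cKO library, so values within subclasses are given beside those of the whole class.

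*Tnc* differed between the 2 large subclasses. Their marker lists hold none of the members but were chosen with earlier results of these data known. The order of *Tnc* over them is therefore no separate check. *Tnc* was at 150 and 193 CPM in *Sfrp4*/*Eln* cells and at 1078 and 1121 CPM in *Inhba*-activated cells. Proliferating cells, at 980 and 1030 CPM, were next to the latter. From the highest to the lowest subclass *Tnc* spanned 7.19-fold in control and 5.80-fold in the *Smo* cKO library. *Nov* had the reverse order of these 2 subclasses, at 59.8 and 100.4 CPM in *Sfrp4*/*Eln* cells and 10.9 and 16.9 CPM in *Inhba*-activated cells.

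Skeletogenic cells, gated on *Acan*, *Fmod*, *Col11a1*, *Sox9* and other cartilage and attachment genes, were the highest subclass for *Postn* and *Tnn*. *Postn* was at 3990 and 3836 CPM there and at 3823 and 3542 CPM in tendon-like cells, against 1858 and 1876 CPM in *Sfrp4*/*Eln* cells. *Tnn* was at 721 CPM (698 to 744) in control and 472 CPM (454 to 490) in *Smo* cKO skeletogenic cells, and at 49.5 and 82.3 CPM in *Sfrp4*/*Eln* cells, so that its range over subclasses reached 14.6-fold in the control. *Cthrc1* was at 1435 and 1785 CPM in skeletogenic and at 1245 and 1823 CPM in tendon-like cells, with *Sfrp4*/*Eln* cells at 673 and 1096 CPM. Periostin, tenascin-W and CTHRC1 transcripts were thus all higher in the skeletogenic than in the *Sfrp4*/*Eln* cells of the same library.

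Tendon-like cells, gated on *Tnmd*, *Scx*, *Mkx* and others, held the highest level of *Thbs4* by a wide margin, at 1057 CPM in control and 1122 CPM in *Smo* cKO. The next subclass was *Serpinb2*/*Dlk1* at 331 CPM in control and skeletogenic at 507 CPM in the *Smo* cKO library. Osteoblast-like cells, gated on *Ibsp*, *Bglap*, *Sp7* and others, were few but held the highest levels of *Sparc* (19313 and 16853 CPM) and *Spp1* (6705 CPM from 1695 UMIs and 3829 CPM from 1736 UMIs). In the other subclasses *Spp1* ranged from 55.0 CPM in *Sfrp4*/*Eln* cells to 516 CPM in proliferating cells of the control, and from 98.1 CPM to 551 CPM in *Inhba*-activated cells of the *Smo* cKO library. *Thbs1* varied little over the subclasses, 1.91-fold in control and 1.73-fold in the *Smo* cKO library, and was highest in *Sfrp4*/*Eln* cells.

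**Figure D2:**
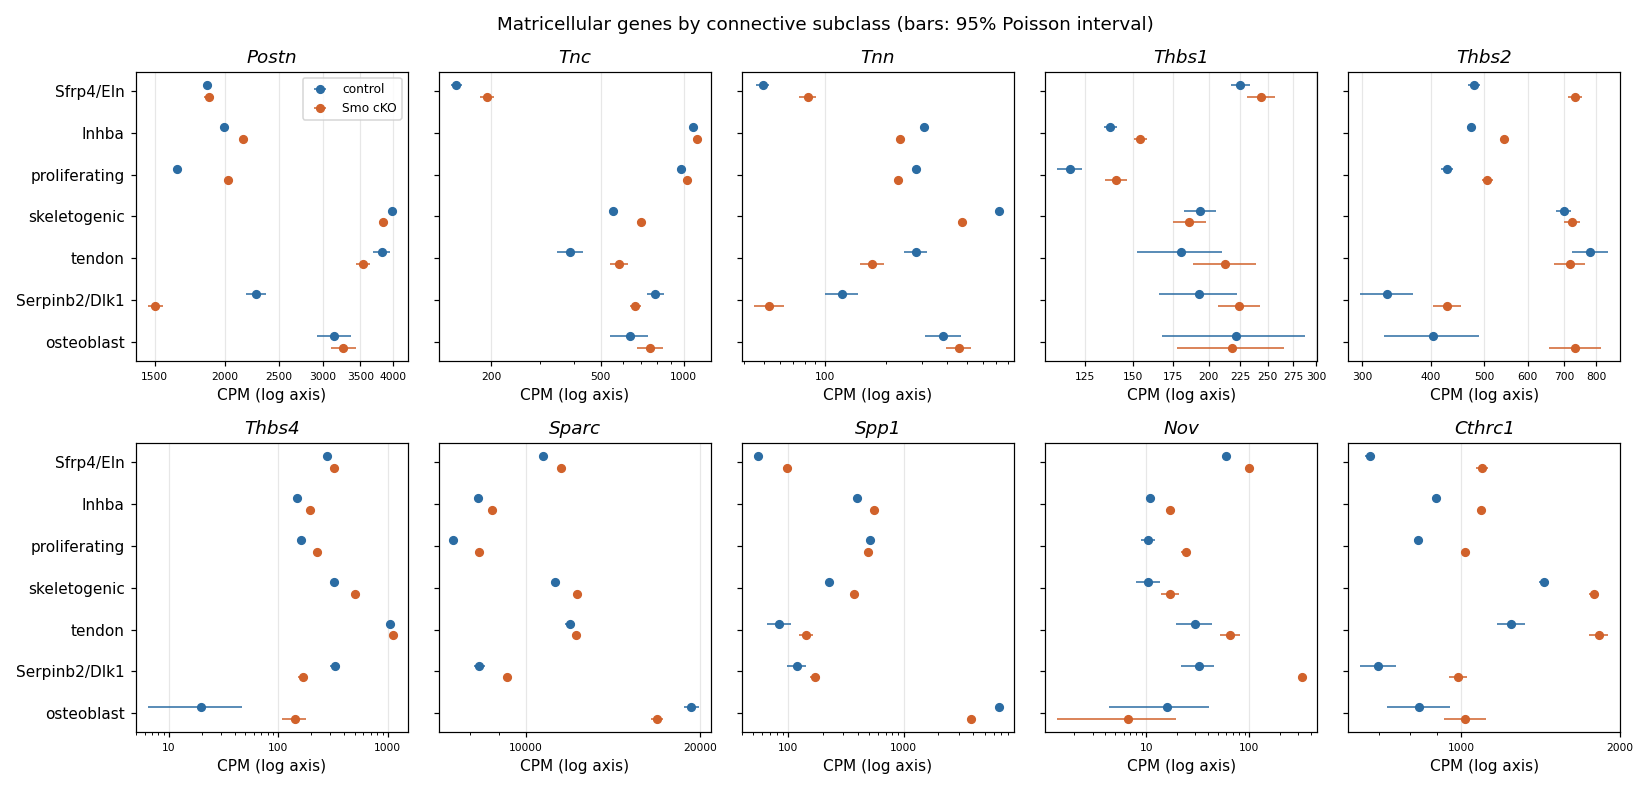
Level of each member in 7 marker-gated subclasses of connective-like cells, as CPM on a log axis, with control in blue, *Smo* cKO in orange and 95% Poisson intervals as bars. *Tnc* is lowest in *Sfrp4*/*Eln* cells, *Tnn* and *Postn* are highest in skeletogenic cells and *Thbs4* in tendon-like cells. In *Smo* cKO the *Tnn* intervals of skeletogenic and osteoblast-like cells overlap. The osteoblast points rest on 23 and 32 cells.

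The second question was whether the members differed between the genotypes in connective-like cells. Of the 9 members at 50 CPM or more, 0 were 2-fold or more higher and 0 were 2-fold or more lower in the *Smo* cKO library, where 0.858% of the 2565 genes at that level were 2-fold higher and 0.156% were 2-fold lower. Of the 9, 8 had a ratio above 0, where 62.4% of the 2565 genes did, and their median log2 ratio was 0.18, beside 0.05 over all these genes. The largest log2 ratios were those of *Spp1* (0.44, 0.42 to 0.46; 356 and 484 CPM), *Cthrc1* (0.37, 0.36 to 0.39) and *Thbs4* (0.34, 0.31 to 0.37). *Thbs2* (0.24), *Tnc* (0.18), *Postn* (0.10), *Thbs1* (0.09) and *Sparc* (0.07) followed. *Tnn* was the only one of the 9 on the lower side, at a log2 ratio of -0.29 (-0.32 to -0.26), which ranked 120 from the lowest of the 2565. *Nov*, under 50 CPM in both libraries, had a log2 ratio of 0.89 (0.80 to 0.98).

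These ratios changed with a filter on the number of genes per cell. The study left out cells with many genes, and that filter is tried here. With cells of over 2000 genes left out, 1509 control and 830 *Smo* cKO connective-like cells remained (23.6% and 16.5%), with median depths of 4727 and 3306 UMIs. In these cells all 10 members were at 50 CPM or more, their median log2 ratio was 0.74, *Spp1* was past 2-fold (log2 ratio 1.61; 186 and 568 CPM) and *Tnn* was on the higher side (0.74; 106 and 177 CPM), while the median over all genes was 0.17 and 3.00% of them were 2-fold higher. The direction of the *Tnn* difference therefore changed with that filter.

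**Figure D3:**
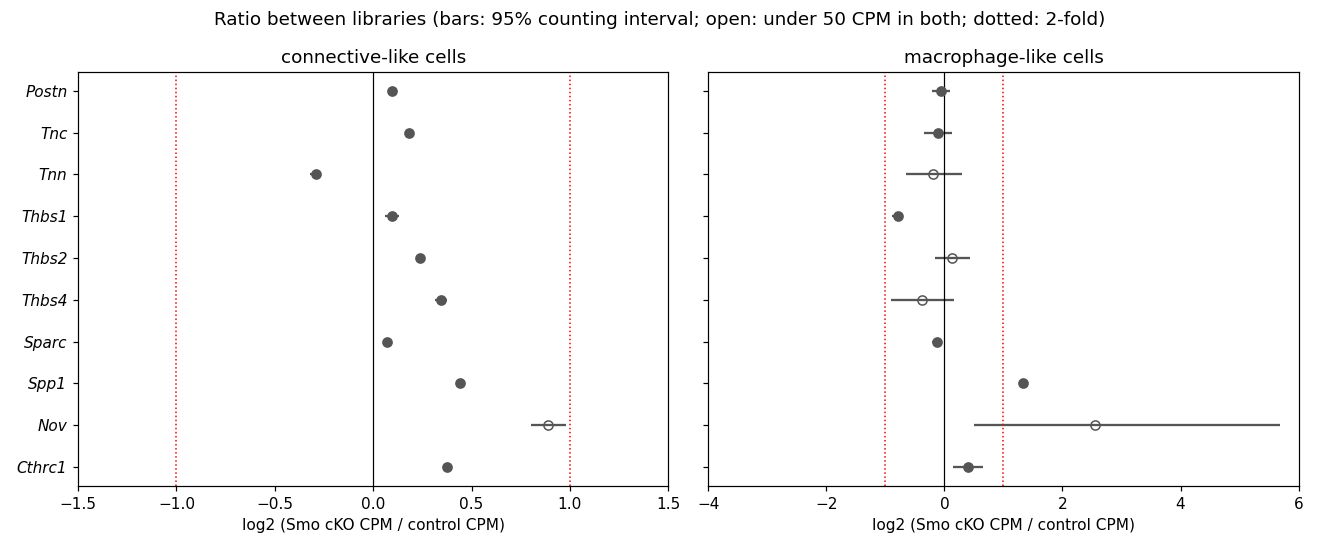
Log2 ratio of *Smo* cKO over control CPM for each member in connective-like cells (left) and macrophage-like cells (right), on axes of different range. Bars are 95% counting intervals, open points are members under 50 CPM in both libraries, and dotted lines mark 2-fold; in connective-like cells all points lie between the lines and *Tnn* is the only one below 0, and in macrophage-like cells *Spp1* is the only closed point above the upper line, the open point of *Nov* resting on 2 and 20 UMIs.

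The share of connective-like cells with at least 1 UMI was compared after every cell was thinned to 1000 UMIs, which left 6096 control and 4878 *Smo* cKO cells. *Cthrc1* was found in 52.0% (50.8% to 53.3%) of control and 64.0% (62.6% to 65.4%) of *Smo* cKO cells, a difference with an interval of 10.1 to 13.8 percentage points. *Tnc* was found in 40.0% and 46.7%, a difference of 6.71 points (4.84 to 8.57). *Thbs4*, *Thbs2*, *Spp1* and *Postn* differed by 4.78, 4.30, 4.20 and 3.70 points in the same direction. *Nov* was found in 2.38% and 3.53%. *Tnn* was found in 18.5% and 16.9% (difference -1.62 points, -3.04 to -0.18), and for *Thbs1* (14.4% and 14.0%) and *Sparc* (99.6% and 99.7%) the interval of the difference included 0. Without thinning the shares were higher throughout, for example 92.4% and 96.1% for *Cthrc1*. In T/NK-like cells thinned alike, *Cthrc1* was found in 13.1% and 10.8%, and *Tnc* in 3.28% and 8.98%.

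Within subclasses the ratios did not all point the same way. *Cthrc1* was on the higher side in each of the 6 subclasses with 50 or more cells in both libraries, from a log2 ratio of 0.29 in *Inhba*-activated cells to 0.70 in *Sfrp4*/*Eln* cells. *Tnn* was on the lower side in 5 of the 6, including skeletogenic cells (-0.61, -0.68 to -0.54) and tendon-like cells (-0.71, -0.98 to -0.44), and on the higher side in *Sfrp4*/*Eln* cells (0.74, 0.56 to 0.91). *Thbs2* differed most in *Sfrp4*/*Eln* cells (480 and 732 CPM; log2 ratio 0.61) and was within counting error in skeletogenic (0.05, -0.01 to 0.12) and tendon-like cells (-0.12, -0.27 to 0.02). *Thbs4* was higher in skeletogenic cells (321 and 507 CPM; 0.66), lower in *Serpinb2*/*Dlk1* cells (331 and 168 CPM; -0.98) and close to even in tendon-like cells (0.09, -0.03 to 0.21), where its level was highest. *Sparc* stayed between 0.03 and 0.16 in all 6. Of the *Serpinb2*/*Dlk1* cells, 93 of 156 in the *Smo* cKO library and 0 of 93 in control were in cluster 23, described below. Connective-like cells of that cluster were at 28.5 CPM of *Thbs4* and 35.2 CPM of *Tnn*. The part of that cluster in the ratios of this subclass was not tested.

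**Figure D4:**
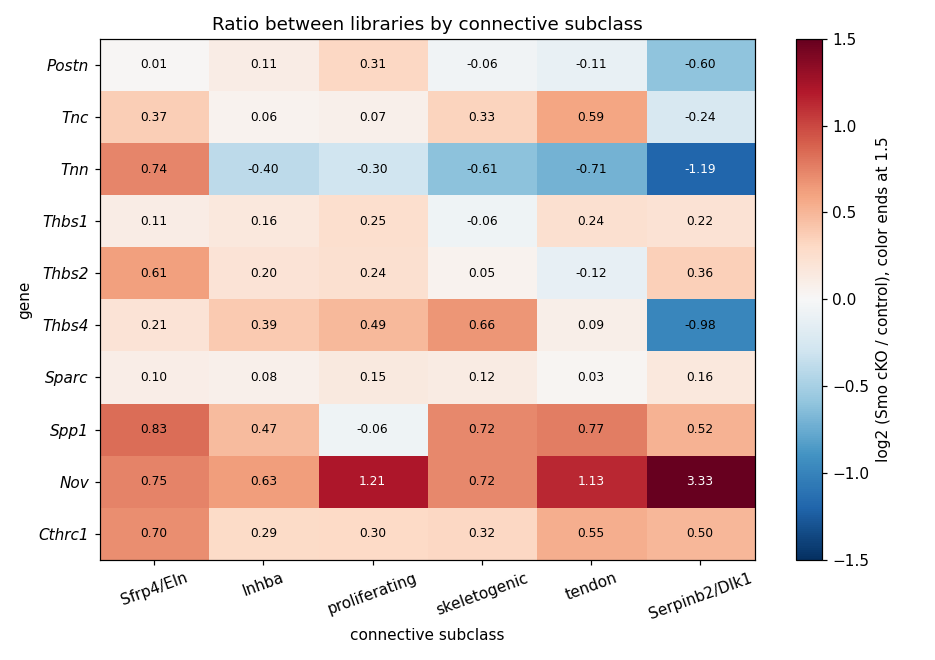
Log2 ratio of *Smo* cKO over control for each member (rows) in the 6 connective subclasses with 50 or more cells in both libraries (columns), printed in each field and shown by color, which ends at 1.5 in both directions. *Cthrc1*, *Nov* and *Sparc* are above 0 in every column, *Tnn* is below 0 in all but the *Sfrp4*/*Eln* column, and the field of *Nov* in *Serpinb2*/*Dlk1* cells, at 3.33, lies past the end of the color scale.

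The connective-like cells of the libraries fell into partly different clusters. Clustered without the 10 members, 21.9% of *Smo* cKO and 1.23% of control connective-like cells were in cluster 5, led by *Cxcl9* and *Isg15*, and 8.20% and 25.8% were in cluster 0, led by *Clec3b* and *C3*. Cells of cluster 5 had 1389 CPM of *Tnc*, 147 of *Tnn* and 1152 of *Cthrc1*, and those of cluster 0 had 304, 80.3 and 751. With the subclasses weighted alike in both libraries, the log2 ratio of *Tnc* was 0.08 in place of 0.18 and that of *Spp1* 0.30 in place of 0.44. Other members moved away from 0 under these weights. *Tnn* was at -0.38 in place of -0.29, *Nov* at 1.03 in place of 0.89, *Thbs1* at 0.15 in place of 0.09 and *Sparc* at 0.10 in place of 0.07. Because cluster 5 is nearly all from 1 library, a cell state and a property of that library cannot be told apart.

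The size of the *Nov* difference changed when 1 small group of cells was left out, and its direction did not. In *Serpinb2*/*Dlk1* cells it was at 32.3 CPM (31 UMIs in 93 cells) in control and 324 CPM (869 UMIs in 156 cells) in the *Smo* cKO library. Of those *Smo* cKO cells 93 were in cluster 23, whose leading genes were *Serpinb2*, *Ly6c1*, *Nov* itself, *Dlk1* and *Ly6a*, and they held 807 of the 869 UMIs, whereas 0 of the 93 control cells were in it. That cluster held 1 control and 119 *Smo* cKO connective-like cells in all. Outside it, *Nov* was at 19.5 CPM (18.5 to 20.4) in control and 23.9 CPM (22.8 to 25.1) in *Smo* cKO connective-like cells, in place of 19.5 and 36.1 CPM with it.

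In macrophage-like cells *Spp1* and *Thbs1* differed in opposite directions. *Spp1*, a phosphorylated integrin and CD44 ligand, was at 1804 CPM (1760 to 1849) in control and 4528 CPM (4474 to 4582) in *Smo* cKO cells, a log2 ratio of 1.33 (1.29 to 1.37), which ranked 22 from the highest of the 2490 genes at 50 CPM or more. *Thbs1* was at 647 and 373 CPM, a log2 ratio of -0.79 (-0.88 to -0.71), which ranked 24 from the lowest. Of the 6 members at 50 CPM or more in this class, 1 was 2-fold or more higher and 0 were 2-fold lower, where 1.73% of all such genes were 2-fold higher and 0.201% were 2-fold lower. The other 4, *Postn*, *Tnc*, *Sparc* and *Cthrc1*, did not lie above the T/NK-like level in both libraries. Thinned to 1000 UMIs, *Spp1* was found in 43.6% (40.8% to 46.4%) of control and 66.9% (64.6% to 69.1%) of *Smo* cKO macrophage-like cells, and *Thbs1* in 31.9% (29.3% to 34.5%) and 22.7% (20.8% to 24.8%).

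The background of *Spp1* moved with it: T/NK-like cells were at 36.2 CPM (5 UMIs) in the control library and 93.5 CPM (33 UMIs) in the other. The levels were 1804 and 4528 CPM in macrophage-like cells and 356 and 484 CPM in connective-like cells. Median depths were 1257 and 1529 UMIs in T/NK-like, 2297.5 and 3036.5 in macrophage-like and 11074 and 13548.5 in connective-like cells. At such unlike depths the CPM of T/NK-like cells does not give the part of background in another class. A wider reference of T/NK-like, B-like and erythroid-like cells together, which was set aside because the erythroid-like cells carried members, was at 131 CPM (80 UMIs) and 268 CPM (373 UMIs) of *Spp1*. Connective-like cells were 2.71-fold above it in the control library and 1.81-fold in the other, and the part of free RNA in the connective-like difference was not tested. *Spp1* was also higher in the *Smo* cKO library in osteoclast-like cells (217 and 520 CPM; log2 ratio 1.26, 1.14 to 1.39) and muscle-like cells (269 and 490 CPM; 0.86, 0.74 to 0.99), and lower in mural-like cells (321 and 214 CPM; -0.58, -0.91 to -0.26).

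Macrophage-like cells were split into subclasses by marker lists that were chosen with earlier results of these data known. The order of *Spp1* over these subclasses is therefore no separate check. Cells scoring for *Arg1*, *Gpnmb*, *Trem2* and related genes had the most *Spp1*, at 4240 CPM (4107 to 4375) in 312 control and 9263 CPM (9128 to 9400) in 552 *Smo* cKO cells, and 73.5% and 89.6% of them had a UMI at equal depth. Cells scoring for *Mrc1* and the complement C1q genes were at 891 and 2332 CPM. In monocyte-like cells, of which there were 66 and 106, *Spp1* was at 1419 and 1594 CPM and its log2 ratio of 0.17 (-0.08 to 0.42) was within counting error. *Thbs1* had another order, with the monocyte-like cells highest at 2571 CPM (2314 to 2848) and 2146 CPM (1977 to 2325), followed by *Arg1*/*Gpnmb* cells at 688 and 343 CPM and *Mrc1*/C1q cells at 382 and 194 CPM. Its log2 ratio was -0.26 in monocyte-like cells, between -1.16 and -0.84 by its interval in *Arg1*/*Gpnmb* cells, and -0.98 in *Mrc1*/C1q cells. The share of macrophage-like cells in the *Arg1*/*Gpnmb* subclass was 22.8% in control and 31.2% in the *Smo* cKO library, and the *Spp1* and *Thbs1* ratios within that subclass were of the same sign as in the whole class.

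**Figure D5:**
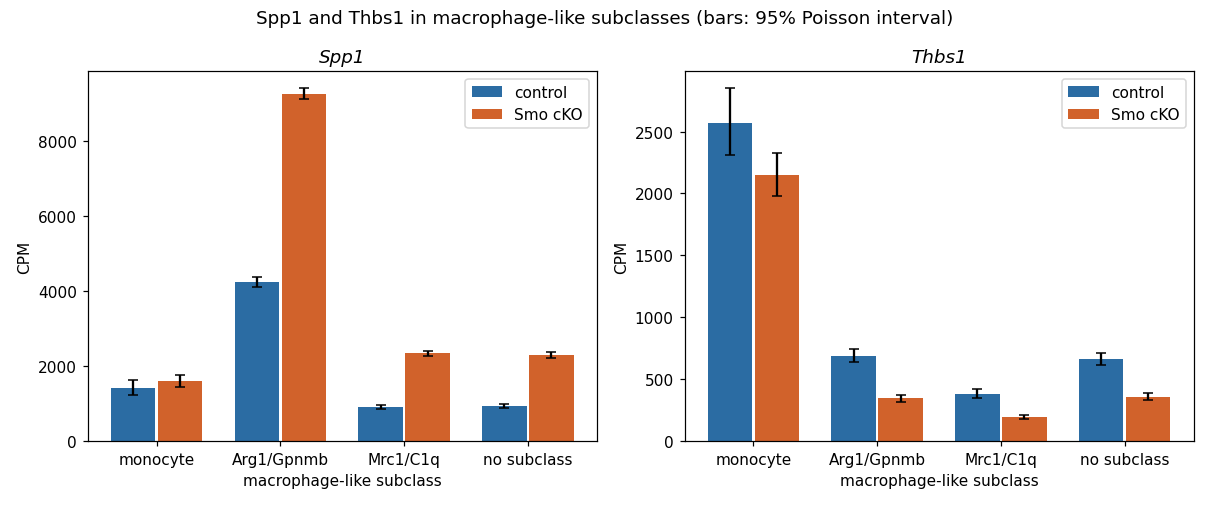
*Spp1* (left) and *Thbs1* (right) in 4 groups of macrophage-like cells, as CPM on a linear axis from 0, with control in blue, *Smo* cKO in orange and 95% Poisson intervals as error bars. *Spp1* is highest in *Arg1*/*Gpnmb* cells, at 4240 and 9263 CPM, and *Thbs1* in monocyte-like cells, at 2571 and 2146 CPM.

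In muscle-like cells 7 members were at 50 CPM or more, 0 of them past 2-fold in either direction, where 0.876% of genes were 2-fold higher and 0.542% 2-fold lower. In endothelial-like cells, 78 in each library, 9 members were at that level, with *Thbs4* 2-fold higher (17.5 and 59.5 CPM from 16 and 54 UMIs) and *Tnn* 2-fold lower (84.2 and 32.0 CPM from 77 and 29 UMIs), where 2.41% and 1.02% of genes were. In T/NK-like cells *Tnn* was at 50.7 and 14.2 CPM from 7 and 5 UMIs and *Thbs4* at 7.24 and 11.3 CPM from 1 and 4 UMIs, so the *Tnn* background was lower in the same library, and the part of free RNA in both endothelial-like values was not tested. *Thbs1* in endothelial-like cells was at 289 and 190 CPM.

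How the members went together within single connective-like cells was described at 1000 UMIs per cell. Cells with a *Tnc* UMI had an *Spp1* UMI more often than cells without, at a share with an interval of 19.4% to 22.6% against 10.9% of control and 21.9% (20.2% to 23.6%) against 16.7% (15.3% to 18.2%) of *Smo* cKO cells. Cells with a *Tnc* UMI had a *Nov* UMI less often, in 1.48% against 2.98% of control and 2.28% against 4.62% of *Smo* cKO cells. *Postn* and *Thbs4* went together in both libraries, with *Thbs4* in 15.9% and 20.9% of cells with a *Postn* UMI and 9.46% and 12.3% of those without. *Thbs4* was found in 29.7% (22.4% to 37.8%) of control cells with a *Nov* UMI and 13.8% of those without, and in 18.6% (13.1% to 25.2%) and 19.0% of *Smo* cKO cells. The 2 libraries were not tested against each other for this.

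Over 28 points, the classes and connective subclasses of both libraries, the genes whose log2(CPM + 10) was most alike to each member were named by Pearson correlation among 5486 genes, as a description of points that share libraries and free RNA. *Postn* was most like *Col5a2* (r = 0.99), *Pcolce* (0.98) and *Bgn* (0.98), and *Sparc* like *Csrp2*, *Fstl1* and *Gpx7* (0.98 each). *Cthrc1* and *Thbs2* were in each other's nearest 3 (0.97), along with *Serpinf1* for both. *Thbs4* was most like *Angptl1*, *Fndc1* and *Ogn* (0.97, 0.97 and 0.96). *Tnc* was nearest to *Loxl2*, *Timp1* and *Rer1* (0.95, 0.94 and 0.93), and *Tnn* to *Col11a1*, *Prg4* and *Dpm3* (0.93, 0.92 and 0.91). Of these, *Col5a2*, *Serpinf1*, *Loxl2*, *Timp1* and *Col11a1* are markers that the gates used. *Nov* was most like *Spon2*, *Has1* and *Osr1* (0.89, 0.88 and 0.88), and *Spp1* like *Fam20c*, *Gde1* and *Acp2* (0.77, 0.76 and 0.74).

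Relatives outside the 10 were read from a list of 18 further matricellular genes. In connective-like cells 10 of them were at 50 CPM or more, of which 1 was 2-fold higher and 0 were 2-fold lower, against 0.858% and 0.156% of all genes at that level. On the higher side were 5 of the 10, against 62.4% of all genes, and their median log2 ratio was -0.0019. The one past 2-fold was *Cyr61*, a CCN family member and immediate early gene, at 94.3 and 199 CPM (log2 ratio 1.08, 1.04 to 1.12). It was also past 2-fold in muscle-like cells, at 54.9 and 112 CPM (1.03, 0.76 to 1.31), as 1 of 4 there, where 0.876% of genes were 2-fold higher. *Fstl1*, a secreted follistatin-like relative of SPARC, was at 1397 and 1297 CPM in connective-like cells. In macrophage-like cells 3 of the 18 were at 50 CPM or more and 0 were past 2-fold, with *Tgfbi*, also a marker in a connective gate, at 789 and 677 CPM, and in endothelial-like cells 6 were and 0 were past 2-fold.

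Receptors and binding partners of these proteins were read from a list of 22 genes. In connective-like cells 9 were at 50 CPM or more and 0 were past 2-fold, with a median log2 ratio of 0.02, and *Cd44*, the hyaluronan and osteopontin receptor, was at 432 and 382 CPM. In macrophage-like cells 10 were at that level, 0 were past 2-fold and 2 were on the higher side, where 45.2% of all genes of the class were, with a median log2 ratio of -0.23 beside -0.04 over those genes. Among these *Cd44* was at 508 and 373 CPM and *Itgav*, the integrin subunit that pairs in the osteopontin and periostin receptors, at 145 and 85.5 CPM (-0.77, -0.95 to -0.59). In muscle-like cells 6 were at that level and 0 past 2-fold, with *Itgb1* at 281 and 248 CPM. In endothelial-like cells 10 were at that level, with *Itgb1* at 602 and 561 CPM. *Lrp1*, a scavenger receptor that takes up thrombospondins, was the 1 past 2-fold there, at 74.3 and 32.0 CPM from 68 and 29 UMIs. Of all genes at that level in the class, 2.41% were 2-fold higher and 1.02% were 2-fold lower.

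Cells with a tdTomato UMI were few, and they were set beside the other connective-like cells of the same library. The paper puts the *Sox9* lineage at a larger share of the callus than these cells made up. A missing UMI therefore does not place a cell outside the lineage, and the other cells may include lineage cells. Nor does a tdTomato UMI by itself place a cell in the lineage, since some macrophage-like cells held one. The part of free RNA in the detected cells was not tested. *Postn* was at 1884 CPM (1787 to 1985) in the 47 tdTomato-detected control cells and 2077 CPM in the rest, and at 2081 CPM (2022 to 2141) in the 108 detected *Smo* cKO cells and 2221 CPM in the rest. *Tnc* was at 854 and 842 CPM in control and 1013 and 953 CPM in the *Smo* cKO library, in the same order. *Spp1* was at 598 CPM (544 to 656) and 354 CPM in the control, and at 543 CPM (513 to 574) and 482 CPM in the *Smo* cKO library. *Nov* was at 66.9 CPM (50 UMIs) and 19.0 CPM in control cells, and at 36.8 and 36.1 CPM in *Smo* cKO cells. *Thbs4* was at 170 and 195 CPM in control and at 166 and 250 CPM in the *Smo* cKO library. Detected cells were deeper, with median depths of 14075 and 19849 UMIs against 11057 and 13397 UMIs, so a cell with more RNA was more likely to be counted as detected, and the part that depth had in these differences was not tested.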

How the data were processed

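The authors aligned reads to mm10 and counted UMIs with Cell Ranger 3.0.2 at default parameters, per the labels and the study's methods; the deposited count matrices hold raw UMI counts per gene and barcode. The study kept cells of 200 to 2000 genes; here cells with 200 or more genes and under 10% mt- UMIs were kept with no upper limit, and the limit of 2000 was an alternative. The members and all gene lists were chosen with earlier results of these data known.

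From the counts, each marker list was scored per cell. Each marker's UMIs per 10000 were capped and divided by the cap, and the score was the mean of these fractions over the list. The cap was the marker's 99th percentile, or the median of the cells with a UMI where that was higher. A cell took the class of its highest score if that was 0.12 or more with 2 or more markers detected. It was set aside as mixed if the next score exceeded 0.5 of the best, a rule not used for subclasses. The scoring rule was set after the data were seen; the markers were not changed. The best score lay between 0.09 and 0.15 in 911 control and 1001 *Smo* cKO cells. Doublets were not removed, beyond the mixed cells. Scrublet (scanpy 1.11.5), with its own threshold, called 2.14% of control and 0.0316% of *Smo* cKO cells, so it had not worked on the latter.

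UMIs were summed per class and library, whose kept cells held 104189394 and 110863278 UMIs. A gene counted as past the fold at 2-fold or more with 50 CPM or more in a library. No p-value was computed. T/NK-like cells alone served as the free RNA reference, in place of T/NK-like, B-like and erythroid-like cells together. This was changed after the levels were seen. Over the reference first named, the members in connective-like cells ranged from 1.09-fold (*Thbs1*) to 11.9-fold (*Nov*) in control. In *Smo* cKO they ranged from 1.81-fold (*Spp1*) to 5.59-fold (*Nov*). Clusters (30 components of 2000 variable genes without the members, 20 neighbours, Louvain, resolution 1.0, python-igraph 0.11.9) served as an alternative. The fold rule was tried on simulated Poisson counts. These hold counting error only and no variation between pools, preparations or cells, so they cannot check the rule against such variation. Named genes were the 10 members, genes of the 2 lists past 2-fold or highest in their list in a class, and the 3 genes most alike to each member (those of *Thbs1* are not reported here); *Itgav*, *Thbs1* in endothelial-like cells and the clusters' leading genes were added after their values were seen. Promoters were taken from RefSeq and positions from GENCODE vM21. Protein sequences were not used here.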

Additional observations from a re-analysis of the deposited data

Results flagged for a closer look

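A member was looked at again where its log2 ratio of *Smo* cKO over control had opposite signs in 2 classes, or in 2 connective subclasses, with both counting intervals off 0, a level of 50 CPM or more, and at least 1 ratio of 0.5 or more in size. The highest and the lowest ratio are given, with their difference. With 1 library per genotype none of these differences was tested.

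Among classes, *Thbs1* was at 0.09 in connective-like and -0.95 in neutrophil-like cells (375 and 194 CPM from 89 and 81 UMIs), a difference of 1.04. Of the 7 classes with *Thbs1* at 50 CPM or more, 4 were lower and 1 was higher with an interval off 0. *Spp1* was at 1.93 in dendritic-like cells (33.0 and 126 CPM from 12 and 33 UMIs) and -0.58 in mural-like cells, a difference of 2.51. The dendritic-like levels were at those of T/NK-like cells (36.2 and 93.5 CPM from 5 and 33 UMIs), which are read as the background of free RNA and were also higher in the *Smo* cKO library. Among connective subclasses, *Tnn* was at 0.74 in *Sfrp4*/*Eln* and -1.19 in *Serpinb2*/*Dlk1* cells (122 and 53.4 CPM), a difference of 1.93. *Thbs4* was at 0.66 in skeletogenic and -0.98 in *Serpinb2*/*Dlk1* cells (331 and 168 CPM), a difference of 1.64. *Postn* was at 0.31 in proliferating and -0.60 in *Serpinb2*/*Dlk1* cells (2280 and 1505 CPM), a difference of 0.90. *Tnc* was at 0.59 in tendon-like and -0.24 in *Serpinb2*/*Dlk1* cells (788 and 667 CPM), a difference of 0.83. *Spp1* was at 0.83 in *Sfrp4*/*Eln* and -0.06 in proliferating cells, a difference of 0.90, and the latter value was 0.12 without the cells of shared barcodes. Of the *Serpinb2*/*Dlk1* cells, 93 of the 156 *Smo* cKO cells and 0 of the 93 control cells were in cluster 23. Connective-like cells of that cluster were at 28.5 CPM of *Thbs4*, 35.2 of *Tnn*, 396 of *Tnc* and 1109 of *Postn*. The part of that cluster in the *Serpinb2*/*Dlk1* ratios was not tested.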

How the results depend on the processing

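With 1 library per genotype, no replicate could be left out and no paired analysis was possible because the labels give no replicate numbers to pair. The count of members past 2-fold in connective-like cells was 0 under every alternative but the limit of 2000 genes, where it was 1 (*Spp1*). The median log2 ratio of the members, 0.18, was 0.74 under that limit, 0.32 as a mean over cells, 0.21 at a gate score of 0.15, 0.20 with no mt- limit, 0.15 with classes from clusters, 0.15 with subclasses weighted alike in both libraries and 0.13 after scaling by the median gene ratio. It was 0.19 without the cells of shared barcodes and 0.20 without the 8% of cells with the highest scrublet scores, an alternative chosen after seeing the data in place of scrublet's own calls, as were the gate score of 0.15 and the shared barcodes. Leaving out the cells that scrublet itself called was not run, since its calls had not worked in the *Smo* cKO library. The number of members highest in connective-like cells was 8 of 10 in each library, and 7 when mixed cells were kept, as those put *Thbs2* (control) or *Nov* (*Smo* cKO) highest in erythroid-like cells. In connective-like cells *Tnn* ranged from -0.38 to 0.74 and *Thbs1* from -0.00015 to 0.15 over the alternatives, the only 2 members with a change of sign, each under 1 alternative. In macrophage-like cells *Spp1* stayed between 1.31 and 1.43 and *Thbs1* between -0.92 and -0.71. Why the values moved was not tested. Depth limits the levels that rest on few UMIs, such as *Nov* in control macrophage-like cells, with 2 UMIs.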
